A study of Mus musculus with 16 samples.

Results

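The transforming growth factor-β (TGF-β) pathway was followed through 9 genes, the ligands *Tgfb1*, *Tgfb2*, and *Tgfb3*, the receptors *Tgfbr1*, *Tgfbr2*, and *Tgfbr3*, and the signal transducers *Smad2*, *Smad3*, and *Smad4*. They were chosen by name, by matching Ensembl identifiers to mouse symbols, among 29629 genes in a single-cell table and 47729 in a bulk table, and all 9 had counts in every group. The single cells came from *ScxGFP* iPSCs, which were made with Sendai virus from embryonic fibroblasts of *ScxGFP* transgenic mice, a line in which GFP marks cells that express scleraxis (*Scx*), a transcription factor of tendon. Every cell carried that transgene. T0 cells, without TGF-β2, were mesodermal cells after at least 4 days of induction with a Wnt agonist and the Hedgehog inhibitor cyclopamine. In the paper's protocol, recovery and preconditioning steps followed the induction, and serum was lowered before TGF-β2 was added. T3, T6, and T9 cells had then been kept for 3, 6, and 9 days in the low-serum medium with human recombinant TGF-β2 at 10 ng/ml. Live single cells were sorted by DNA and viability dyes, not by GFP, into 3 plates of 384 wells per time point. No plate held cells kept for the same time without TGF-β2, so that the factor and the time in culture cannot be told apart. The bulk samples were Achilles tendons of *Scx* KO mice and wild-type littermates aged 2 weeks, with 2 samples of each (Scx_KO and Scx_Wt). Where nothing states that plates or samples came from separate cultures or animals, p-values measure only the spread between them.

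In this pathway, a dimeric ligand is secreted bound to its own propeptide, is held latent in the matrix, and, once released, brings together the type II receptor (*Tgfbr2*) and the type I receptor (*Tgfbr1*). *Tgfbr3*, also called betaglycan, is a co-receptor without a kinase domain that presents ligand, above all TGF-β2. The type I receptor phosphorylates Smad2 and Smad3, which join Smad4 and enter the nucleus, where Smad3 and Smad4 bind DNA. The pathway is known to be needed for the formation of tendons in the embryo and to induce *Scx*.

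Of 4608 wells, the 4594 with at least 200 detected genes were used (1147, 1151, 1149, and 1147 at T0, T3, T6, and T9), and their UMIs, the counted molecules, came to 1921125 to 4657093 for each plate. Cells had a median of 10175, 5703, 8794, and 7900 UMIs at the 4 time points in order, and the bulk samples held 11188270 to 12398560 counts. All 384 well barcodes were used on every plate by design. *Scx* rose from T0 to T3 (log2 fold change 6.52 ± 0.35 SE, adjusted p = 2.02e-08), and *Tnmd*, a late tenocyte marker, had no UMI at T0. The summed level of 8 tenocyte markers, in UMIs per 1000000, was between 607 and 616 at T0, 3480 and 7286 at T3, 6606 and 14388 at T6, and 7362 and 23063 at T9. *Col1a1* carried most of this rise, at 232 to 318 at T0 and 5768 to 20730 at T9. *Scx* itself went the other way after T3, with T9 below T3 by −1.90 ± 0.28 (adjusted p = 0.000494 by edgeR). At T0 and T9, 6 pluripotency markers were at 309 to 647 and 0 to 216, 5 epithelial markers at 382 to 495 and 25.2 to 113, and 4 smooth muscle markers at 258 to 583 and 2272 to 3459. The plates also fell into those with more reads outside annotated features (all T0 plates, T3 replicate 2, T6 replicates 1 and 3, and T9 replicate 3) and those with fewer (the other 5). The scaling factors of the former were 1.05 to 1.24 and those of the latter 0.738 to 0.962. Their part in the changes of the 9 genes was tested only by the alternatives named beside the results.

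Sequences in front of the gene were read for only 5 of the genes, *Tgfb1*, *Tgfb2*, *Tgfbr1*, *Tgfbr2*, and *Smad3*. None was read for *Tgfb3*, *Tgfbr3*, *Smad2*, and *Smad4*, so that a contrast between rising and falling genes does not cover them. Of the 5, the sequences of 4 are shown because these genes moved in opposite directions over the time course, as described with the levels. Each line gives the 250 bases before the start of the gene in RefSeq (GRCm38.p6), read 5′ to 3′ along the gene's strand. Capitals mark CAGAC, the Smad binding element, searched on both strands. *Tgfb2* (chr1:186705990-186706239, minus strand) and *Tgfbr2* (chr9:116175364-116175613, minus strand) became more abundant by T3, and *Tgfbr1* (chr4:47352972-47353221, plus strand) and *Smad3* (chr9:63757995-63758244, minus strand) were less abundant at T9 than at T0.
Tgfb2: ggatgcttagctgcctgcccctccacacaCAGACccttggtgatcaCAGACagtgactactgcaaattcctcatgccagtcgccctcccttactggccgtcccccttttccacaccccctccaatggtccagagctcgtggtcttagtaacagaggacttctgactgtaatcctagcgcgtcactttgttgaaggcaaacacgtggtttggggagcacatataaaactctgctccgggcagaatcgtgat
Tgfbr2: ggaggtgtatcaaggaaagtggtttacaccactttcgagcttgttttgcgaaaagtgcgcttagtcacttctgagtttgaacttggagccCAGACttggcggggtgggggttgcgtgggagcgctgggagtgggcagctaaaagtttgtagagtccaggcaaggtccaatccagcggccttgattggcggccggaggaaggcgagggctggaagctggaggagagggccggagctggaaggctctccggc
Tgfbr1: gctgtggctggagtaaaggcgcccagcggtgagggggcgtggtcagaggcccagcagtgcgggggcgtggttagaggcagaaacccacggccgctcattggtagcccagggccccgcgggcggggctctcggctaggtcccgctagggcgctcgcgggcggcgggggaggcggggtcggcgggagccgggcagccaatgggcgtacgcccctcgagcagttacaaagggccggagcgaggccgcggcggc
Smad3: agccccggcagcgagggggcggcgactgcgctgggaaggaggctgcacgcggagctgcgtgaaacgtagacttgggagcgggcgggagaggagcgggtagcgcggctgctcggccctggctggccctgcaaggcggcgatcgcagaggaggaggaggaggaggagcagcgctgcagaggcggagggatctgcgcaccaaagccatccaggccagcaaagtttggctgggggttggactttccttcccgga

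The *Tgfb2* sequence held CAGAC at 2 places and that of *Tgfbr2* at 1, while those printed for *Tgfbr1* and *Smad3* held none. RefSeq gives *Tgfbr1* a second start, and the window before it (chr4:47385966-47386215, plus strand) held CAGAC at 1 place and no GGGCGG, with a GC content of 52.8%. The window of *Tgfb1*, a gene that was more abundant at T9 than at T0, held no CAGAC and had a GC content of 75.2%, so that the element was not before every gene that rose. The element was in 42.2% of 32851 promoters of this length, so that its presence is common. The printed sequences of *Tgfbr1* and *Smad3* each held GGGCGG, the core of the Sp1 box, at 2 places on either strand, and that of *Tgfb1* held it at 5, against 32.7% of all promoters with at least 1. GC content of the printed sequences was 53.6% for *Tgfb2* and 58.4% for *Tgfbr2*, and 74.8% for *Tgfbr1* and 69.2% for *Smad3*. Neither the AP-1 site TGANTCA, in 6.75% of all promoters, nor the cAMP response element TGACGTCA, in 1.55%, was in any of the 4. The E-box CANNTG, in 66.2% of promoters, was at 1 place in that of *Tgfb2*, in none of the other 3, and at 1 place in the second window of *Tgfbr1*. A match of letters describes the window and is no evidence of binding.

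Over the time course *Tgfb3* and *Tgfbr2* rose, *Tgfbr1* fell, and *Smad3* and *Smad4* became less abundant. *Tgfb3* and *Tgfbr2* went from under 11 CPM on every T0 plate to between 42.9 and 139 CPM on all later plates. *Tgfb2* peaked at T3, and *Tgfbr3* came last, with its highest values at T9. *Tgfbr1*, *Smad3*, and *Smad4* had lower means at each later time point than at T0. Levels are in CPM, UMIs per 1000000 counted on the plate, after TMM scaling, which applies a factor per plate that centres most genes. CEL-Seq2 counts the 3′ end of each molecule, so that levels are compared within a gene and not between genes.

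**Figure D1:**
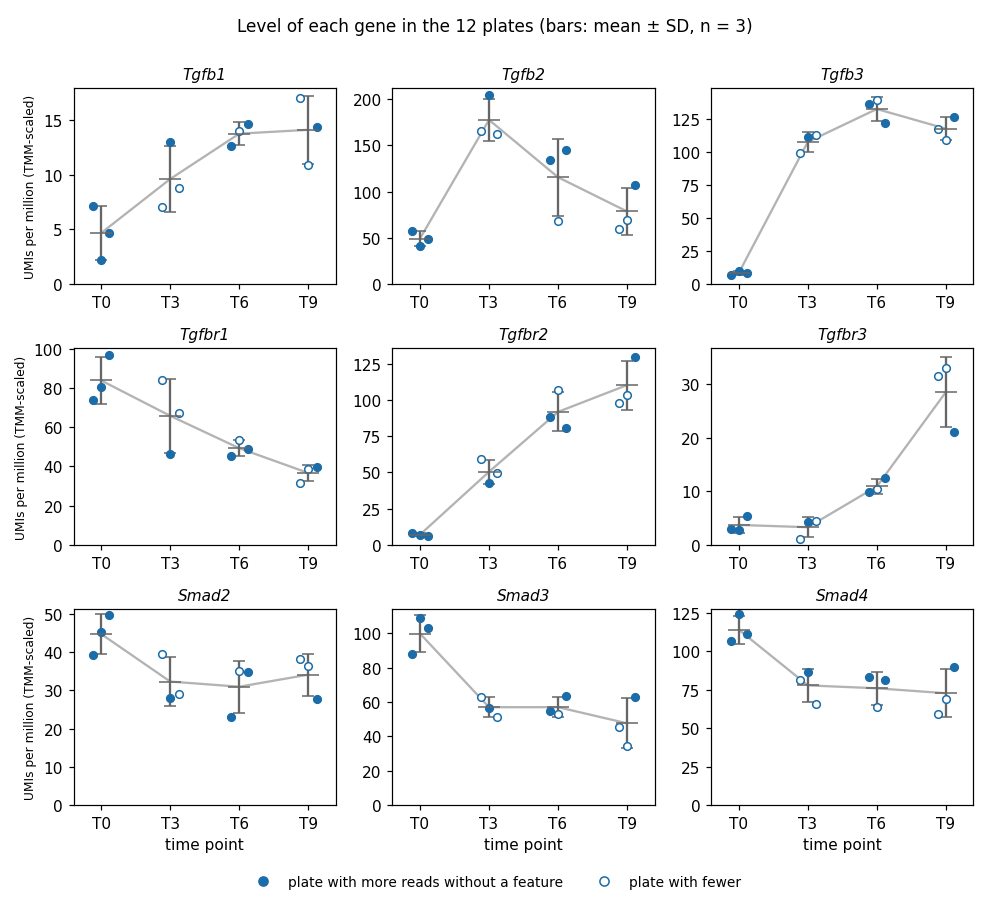
Level of each of the 9 genes on the 12 plates, in TMM-scaled CPM, at each time point. Points are plates, filled where more reads fell outside features, bars are mean ± SD of 3 plates, and lines join the means, so that *Tgfb3* stands at 8.70 at T0 and 108 at T3, and *Tgfbr1* at 83.7 at T0 and 36.6 at T9.

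Of the ligands, *Tgfb3* (ENSMUSG00000021253, chr12:86056745-86079041, minus strand) changed the most. Its level was 6.82, 10.4, and 8.89 CPM on T0 replicates 1 to 3, 99.2, 111, and 113 at T3, 137, 139, and 122 at T6, and 117, 109, and 126 at T9. No later plate overlapped with T0, while the ranges of T3 and T9 overlapped. The log2 fold change from T0 to T3 was 3.63 ± 0.19 (SE, 12.4-fold, adjusted p = 1.68e-08). From T0 to T9 it was 3.76 ± 0.19 (13.5-fold, adjusted p = 3.49e-09). Between the means of 108 ± 7.50, 133 ± 9.29, and 118 ± 8.49 (SD, n = 3) at T3, T6, and T9 there was no called difference (adjusted p = 0.358 between T3 and T6, 0.630 between T6 and T9, and 0.692 between T3 and T9). TGF-β3, the ligand that *Tgfb3* encodes, is best known for its role in palate fusion. Exons of *Tgfb3* share 420 bases with *Gm37804* and *Gm48008* on the other strand.

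*Tgfb2* (ENSMUSG00000039239, chr1:186622792-186705989, minus strand), the mouse gene of the ligand that was added to the medium, rose and then declined. It was at 57.7, 41.8, and 49.1 CPM at T0, 166, 204, and 163 at T3, 134, 67.9, and 145 at T6, and 59.8, 69.4, and 107 at T9. The T3 plates were above all others, and T9 overlapped with T6 and, at 59.8, lay just above the highest T0 plate. The rise to T3 was 1.84 ± 0.28 on the log2 scale (3.58-fold, adjusted p = 0.000221), and T9 was below T3 by −1.17 ± 0.28 (adjusted p = 0.0113, a contrast added after the levels had been seen). The latter call was lost without T9 replicate 1 (adjusted p = 0.0633). The net difference between T9 and T0, 0.67 ± 0.28, was not called (adjusted p = 0.0627). The spread at T6 and T9 moved with the library split: the plates with more reads outside features had 134 and 145 at T6 and 107 at T9, and those with fewer had 67.9 at T6 and 59.8 and 69.4 at T9. With the split as a covariate, the decline from T3 to T6 was −0.89 (adjusted p = 0.00138, against −0.61 and 0.240 without it), and T9 against T0 was 1.08 (adjusted p = 7.64e-05). The recombinant protein was human and is not counted as RNA. Exons of *Tgfb2* share 124 bases with *Gm29491* on the other strand.

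*Tgfb1* (ENSMUSG00000002603, chr7:25687002-25705077, plus strand), the most widely expressed isoform in most adult tissues, had few UMIs. Its values were 7.16, 2.2, and 4.68 CPM at T0, 7.09, 13.0, and 8.74 at T3, 12.6, 14.0, and 14.6 at T6, and 17, 10.9, and 14.4 at T9. All T6 and T9 plates exceeded the T0 plates, while T3 replicate 1 lay within the T0 range. The difference from T0 to T9 was 1.57 ± 0.37 (2.97-fold, adjusted p = 0.00351). That from T0 to T3 was 1.05 ± 0.38 (adjusted p = 0.0482), and leaving out T0 replicate 2 or 3 or T3 replicate 2 or 3 ended this call (adjusted p up to 0.200). After thinning every cell to 3000 UMIs, neither difference was called (adjusted p = 0.207 and 0.0927).

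The share of each ligand gene in the ligand UMIs changed with these levels. *Tgfb2* gave 76.8% to 80.5% of the ligand UMIs of a plate at T0, 57.2% to 62.1% at T3, 30.7% to 51.5% at T6, and 30.8% to 43.2% at T9. *Tgfb3* gave 9.51% to 19.1% at T0, 33.9% to 39.7% at T3, 43.3% to 63.0% at T6, and 51.0% to 60.5% at T9. *Tgfb1* stayed a small part, with means of 7.17%, 3.21%, 5.32%, and 6.76%. The share of *Tgfb2* was thus higher on every T0 plate than on any later plate, and that of *Tgfb3* lower. How well the 3′ end of each gene is captured is unknown, so that a share is compared between time points and not between genes.

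Among the receptors, *Tgfbr2* (ENSMUSG00000032440, chr9:116084293-116175360, minus strand), the type II receptor, rose from T0 to T6, and its further step to T9 was not called. Its level was 8.21, 6.60, and 6.32 CPM at T0, 59.1, 42.9, and 49.5 at T3, 88.5, 107, and 80.4 at T6, and 97.9, 104, and 129.6 at T9. T0, T3, and T6 did not overlap with each other, while T6 and T9 did. The step from T0 to T3 was 2.82 ± 0.21 (7.06-fold, adjusted p = 3.84e-07), that from T3 to T6 0.87 ± 0.19 (1.83-fold, adjusted p = 0.0176), and that from T6 to T9 0.27 ± 0.18 (adjusted p = 0.492). T9 was above T3 by 1.14 ± 0.19 (adjusted p = 0.00118) and above T0 by 3.96 ± 0.22 (15.5-fold, adjusted p = 8.12e-09). The T3 to T6 call was lost without T3 replicate 2 or 3 or T6 replicate 1 (adjusted p up to 0.0696), and after thinning the difference was 0.53 (adjusted p = 0.213).

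*Tgfbr1* (ENSMUSG00000007613, chr4:47353222-47414931, plus strand), the type I receptor kinase that phosphorylates Smad2 and Smad3, went the other way. It was at 73.9, 80.4, and 96.9 CPM at T0, 83.9, 46.3, and 67.0 at T3, 45.2, 53.6, and 49.0 at T6, and 31.8, 38.4, and 39.6 at T9. T3 replicate 1 lay within the T0 range, and every T6 and T9 plate lay below it. T9 was below T0 by −1.19 ± 0.21 on the log2 scale (a 2.28-fold difference, adjusted p = 0.000434) and below T3 by −0.83 ± 0.22 (adjusted p = 0.0190). The steps between neighbouring time points were −0.36 ± 0.21, −0.41 ± 0.21, and −0.42 ± 0.21, and none was called (adjusted p = 0.197, 0.323, and 0.357). The T9 against T3 call was lost without T3 replicate 1 or 3 or T9 replicate 1 (adjusted p up to 0.0895). With only the plates with more reads outside features, T3 against T0 was −0.87 and T9 against T3 −0.22. That side held only replicate 2 of T3, the lowest plate of its time point, and replicate 3 of T9. The time of the decline thus cannot be read from this fit.

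*Tgfbr3* (ENSMUSG00000029287, chr5:107106570-107289629, minus strand) stayed low until T3. Its values were 2.97, 2.80, and 5.38 CPM at T0, 1.18, 4.32, and 4.37 at T3, 9.78, 10.5, and 12.4 at T6, and 31.4, 33.0, and 21.1 at T9. T0 and T3 overlapped, T6 was above both, and T9 was above T6 on every plate. T9 exceeded T0 by 2.94 ± 0.36 (7.69-fold, adjusted p = 1.57e-05) and T3 by 3.00 ± 0.38 (7.99-fold, adjusted p = 0.000180). The step from T3 to T6 was 1.62 ± 0.39 (adjusted p = 0.0310) and that from T6 to T9 1.38 ± 0.33 (adjusted p = 0.0524 by edgeR and 0.00407 by DESeq2). The former was lost when any plate but T6 replicate 2 was left out (adjusted p up to 0.124). From T0 to T3 the difference was −0.06, with a 95% interval from −0.89 to 0.77. Exons of *Tgfbr3* share 297 bases with *Gm43422* on the same strand.

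*Smad3* (ENSMUSG00000032402, chr9:63646767-63757994, minus strand), the receptor-regulated Smad that binds DNA itself, fell by T3 and then held a similar level. It was at 88.1, 109, and 103 CPM at T0, 63.2, 56.5, and 51.3 at T3, 54.7, 52.8, and 63.6 at T6, and 45.4, 34.3, and 63.2 at T9. All 9 later plates were below the T0 plates, and the later time points overlapped. The difference was −0.81 ± 0.21 from T0 to T3 (adjusted p = 0.00823) and −1.06 ± 0.21 from T0 to T9 (a 2.08-fold difference, adjusted p = 0.000874). Both calls were kept in each fit without 1 plate and under all other settings.

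*Smad4* (ENSMUSG00000024515, chr18:73639009-73703780, minus strand), the common partner of the receptor-regulated Smads, followed *Smad3* with a smaller change. Its values were 107, 124, and 111 CPM at T0, 81.5, 86.4, and 65.9 at T3, 83.1, 63.7, and 81.3 at T6, and 59.1, 69.4, and 90.0 at T9, and again no later plate reached the T0 plates. The difference was −0.55 ± 0.19 at T3 (adjusted p = 0.0379) and −0.65 ± 0.19 at T9 (adjusted p = 0.0127). The call at T3 was lost in 5 of 6 fits without 1 plate, all but that without T3 replicate 2 (adjusted p up to 0.147), and that at T9 without T0 replicate 2 or T9 replicate 1 (adjusted p up to 0.0659). *Smad2* (ENSMUSG00000024563, chr18:76241580-76310963, plus strand), the other receptor-regulated Smad, was at 39.1, 45.2, and 49.6 at T0, 39.6, 28.1, and 29.1 at T3, 23.0, 34.9, and 34.8 at T6, and 38.0, 36.3, and 27.8 at T9. T3 replicate 1 overlapped with T0. Its differences from T0, −0.48 ± 0.22 at T3 and −0.39 ± 0.22 at T9, were not called (adjusted p = 0.106 and 0.154), with 95% intervals from −0.91 to −0.05 and from −0.82 to 0.03.

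Counted over all comparisons, 6 of the 9 genes were called from T0 to T3 (adjusted p below 0.05 in edgeR's quasi-likelihood test), 4 higher and 2 lower. Of all 13372 genes tested, 33.2% were called in that comparison, 17% higher and 16.2% lower. From T0 to T9, 7 were called, 4 higher and 3 lower, against 45.2% of all genes (23.6% and 21.6%). Between T3 and T6, 2 were called, both higher, against 4.24% (2.61% higher and 1.63% lower), and between T3 and T9, 4 were called, 2 in each direction, against 14.1% (8.31% and 5.79%). Between T6 and T9, none was called, against 1.62% of all genes, while 1 gene, *Tgfbr3*, had an unadjusted p below 0.05 and was the 1 gene that DESeq2 called. Of all 13372 genes tested, 2104 had an unadjusted p below 0.05 in edgeR's test there. The median log2 fold change of the 9 genes was −0.06 from T0 to T3 and 0.67 from T0 to T9, and that of all genes tested was 0.01 and −0.02. These comparisons share plates and a fit, so that they are not independent of each other.

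**Figure D2:**
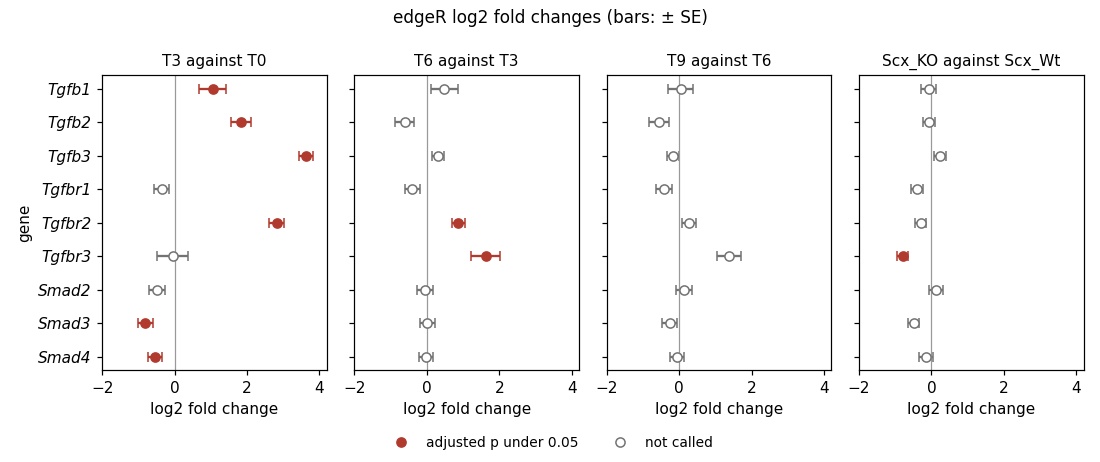
Log2 fold changes of the 9 genes from edgeR between neighbouring time points and between Scx_KO and Scx_Wt tendon, with bars for ± SE and filled red points where the adjusted p was below 0.05. *Tgfb3* and *Tgfbr2* stand apart from 0 in T3 against T0 at 3.63 and 2.82, while *Tgfbr3* moves later, by 1.62 from T3 to T6, and is the filled point, at −0.80, in the tendon.

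Without TMM factors, with levels per total UMIs only, the median of all genes shifted to −0.21 from T0 to T3 and to −0.49 from T0 to T9, and the share of called genes that were higher went from 51.3% to 39.1% and from 52.1% to 28.2%. Of the 9 genes, 6 and 7 were called, as with TMM, but they were not all the same genes. At T3, *Tgfb1* (0.85, adjusted p = 0.176) and *Smad4* (−0.76, adjusted p = 0.0745) were then lost, and *Tgfbr1* (−0.61, adjusted p = 0.0459) and *Smad2* (−0.71, adjusted p = 0.0161) were gained, which gave 3 higher and 3 lower. At T9, *Tgfb1* was lost (1.08, adjusted p = 0.0621) and *Smad2* was gained (−0.89, adjusted p = 0.00247), which gave 3 higher and 4 lower. *Tgfb2*, *Tgfb3*, *Tgfbr2*, and *Smad3* at T3, and *Tgfb3*, *Tgfbr1*, *Tgfbr2*, *Tgfbr3*, and *Smad3* at T9, were called against T0 under every setting and in each fit without 1 plate.

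In single cells the same genes were found in a varying share of wells. In the order T0, T3, T6, T9, a UMI of *Tgfbr2* was found in 7.76% ± 1.29, 19.8% ± 3.19, 47.2% ± 4.16, and 41.1% ± 4.31 of wells (SD over 3 plates each). *Tgfb3* was found in 9.24% ± 2.18, 36.8% ± 13.0, 58.7% ± 8.64, and 41.8% ± 4.28, and *Tgfbr1* in 53.8% ± 1.37, 22.6% ± 7.30, 30.0% ± 7.45, and 17.8% ± 3.35. These shares depend on depth, which was lowest at T3. With each cell thinned to 3000 UMIs, leaving out 76, 113, 68, and 36 cells, *Tgfbr2* was found in 1.87%, 12.7%, 20.7%, and 20.7% of cells, *Tgfb3* in 2.51%, 23.4%, 31.1%, and 23.4%, and *Tgfbr1* in 26.4%, 13.1%, 12.5%, and 8.59%. In the thinned cells, *Tgfbr1* was thus below its T0 share at all later time points, and *Tgfb3* and *Tgfbr2* above theirs. *Tgfbr3* was in few cells throughout, 3.58% at T0 and 12.3% ± 1.60 at T9, or 1.12% and 6.31% after thinning.

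Messages of *Tgfbr1* and *Tgfbr2*, which together form the signalling receptor, were found together in a minority of cells. This share cannot exceed that of the rarer gene, 7.76% for *Tgfbr2* at T0 and 17.8% for *Tgfbr1* at T9. The share to be found if both genes were independent was not computed, so that low values do not place the receptors in different cells. In the order of the time points, 5.06% ± 1.68, 5.74% ± 2.72, 16.7% ± 6.12, and 8.01% ± 2.76 of cells had a UMI of both. After thinning it was 0.56% ± 0.55, 1.16% ± 0.30, 2.71% ± 1.24, and 2.45% ± 1.56. At these depths a cell without a UMI cannot be read as a cell without the message. At least 1 UMI of any ligand was in 38.6%, 63.3%, 76.8%, and 58.0% of cells in the same order, and in 17%, 46.2%, 48.6%, and 36.7% after thinning.

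Other genes of the pathway were read from 5 lists, which overlap in *Pmepa1*, *Skil*, *Smad7*, and *Ltbp2*. From T0 to T3, 8 of 15 tested genes of ligand latency and activation were called, 7 higher and 1 lower, beside the 33.2% of all genes, with a median log2 fold change of 1.02 against 0.01 for all genes. Those with the largest changes were the matrix metalloprotease *Mmp2* (2.84 ± 0.20), *Ltbp3* (2.31 ± 0.34) and *Ltbp4* (2.15 ± 0.37), which bind latent TGF-β or lie beside it in the matrix, and the integrin subunit *Itgb8* (2.03 ± 0.43). The integrin subunit *Itgav* was the gene that fell (−1.18 ± 0.19). Of 13 other receptors and membrane modulators, 4 rose and 1 fell, a share called near that of all genes. The type I receptors *Acvrl1* (3.56 ± 0.97) and *Acvr1* (2.15 ± 0.24) and the adaptor *Dab2* (1.82 ± 0.27) were among those that rose, and the activin receptor *Acvr2b* fell (−1.76 ± 0.37). Of the 5 other Smads, *Smad9* (−1.36 ± 0.48), which serves BMP signals, and the inhibitory *Smad6* (−1.26 ± 0.32) fell, and the inhibitory *Smad7*, a target of TGF-β itself, rose (0.72 ± 0.18). Of 10 nuclear and ubiquitin regulators, 3 rose and none fell, namely *Pmepa1* (3.08 ± 0.22), *Skil* (1.65 ± 0.18), and *Wwp1* (0.67 ± 0.21). The share called was again near that of all genes. Of 13 response genes, 8 rose and none fell, with *Col1a2* (4.22 ± 0.33), *Col1a1* (3.99 ± 0.42), *Pmepa1*, and *Fn1* (2.27 ± 0.27) in front and a list median of 1.20.

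After T3, fewer of these genes were called, as of all genes. From T3 to T6, 2 of 15 latency genes rose, beside 4.24% of all genes called, the integrin subunit *Itgb3* (3.28 ± 0.65) and *Thbs1* (1.46 ± 0.27), which encodes thrombospondin 1, an activator of latent TGF-β. Of the response genes, *Col1a2* (1.49 ± 0.29), *Junb* (1.20 ± 0.27), and *Ccn2* (0.86 ± 0.17) rose, while none of the tested genes of the other 3 lists was called. From T6 to T9, beside 1.62% of all genes, *Thbs1* (1.17 ± 0.27), *Ccn2* (1.31 ± 0.17), and *Snai1* (0.85 ± 0.20) rose, and *Pmepa1* (−0.95 ± 0.20) and *Skil* (−0.80 ± 0.18), both feedback inhibitors of Smad signals, fell. Over the whole time from T0 to T9, 10 of 15 latency genes were called, all higher, beside 45.2% of all genes (23.6% higher and 21.6% lower), with *Thbs1* (4.63 ± 0.31), *Mmp2* (3.83 ± 0.21), *Lrrc32* (3.79 ± 0.82), and *Ltbp3* (3.43 ± 0.33) in front. Of the 13 receptors, 5 rose and 2 fell, a share near that of all genes, with *Acvrl1* (5.58 ± 0.87), *Cd109* (3.39 ± 0.37), and *Dab2* (2.67 ± 0.27) higher and *Acvr2b* (−3.71 ± 0.43) lower. Of the other Smads, *Smad9* (−2.90 ± 0.54), *Smad6* (−1.34 ± 0.32), and *Smad5* (−0.83 ± 0.19) fell. Of the 10 nuclear regulators, 4 rose and 1 fell, again near the share of all genes, and of the response genes 9 of 13 were called, all higher. Response genes are known from other systems, and *Col1a1* is also a tenocyte marker, so that their changes are not separate from those of the tenocyte list.

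Cells with at least 1 UMI of *Scx* were compared with the other cells of the same plate at T3, T6, and T9. *Tgfb2* and *Tgfb3* were higher in the *Scx*-positive sums on all 9 plates, but no difference of the 9 genes was called at any time point. *Tgfb3* was at 101, 118, and 113 CPM in *Scx*-positive and 73.0, 63.7, and 71.0 in *Scx*-negative cells at T3, at 133, 139, and 119 against 98.6, 97.6, and 93.5 at T6, and at 132, 127, and 157 against 91.1, 91.7, and 95.5 at T9. The ranges did not overlap at any of the time points. The share of all genes that separated in this way, or were higher on all 9 plates, was not counted. Neither pattern alone is thus a result here. The log2 difference was 0.69 ± 0.17 at T3 (adjusted p = 0.0567), 0.43 ± 0.14 at T6 (0.278), and 0.58 ± 0.14 at T9 (0.0600). *Tgfb2* was at 167, 211, and 162 against 130.4, 141, and 109 at T3, 128, 68.1, and 148 against 115, 46.1, and 85.1 at T6, and 74.7, 88.3, and 117 against 39.3, 54.0, and 91.9 at T9. Its log2 difference was 0.51 ± 0.16, 0.50 ± 0.17, and 0.62 ± 0.16 (adjusted p = 0.181, 0.272, and 0.118). *Scx*-positive cells had the higher median number of UMIs on all 9 plates, and the part of this depth was examined only by thinning. *Scx* status was then called again on the thinned counts. On T9 replicate 1, 178 positive and 204 negative cells became 91 and 284, so that depth and changed status cannot be told apart. After thinning, *Tgfb3* was at 0.56, 0.25, and 0.80 at T3, T6, and T9 (adjusted p = 0.254, 0.994, and 0.0173 by edgeR). *Tgfb2* was then at 0.43, 0.29, and 0.29 (0.300, 0.978, and 0.860). The differences were lower after thinning and the new call of status, except that of *Tgfb3* at T9, which was called.

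**Figure D3:**
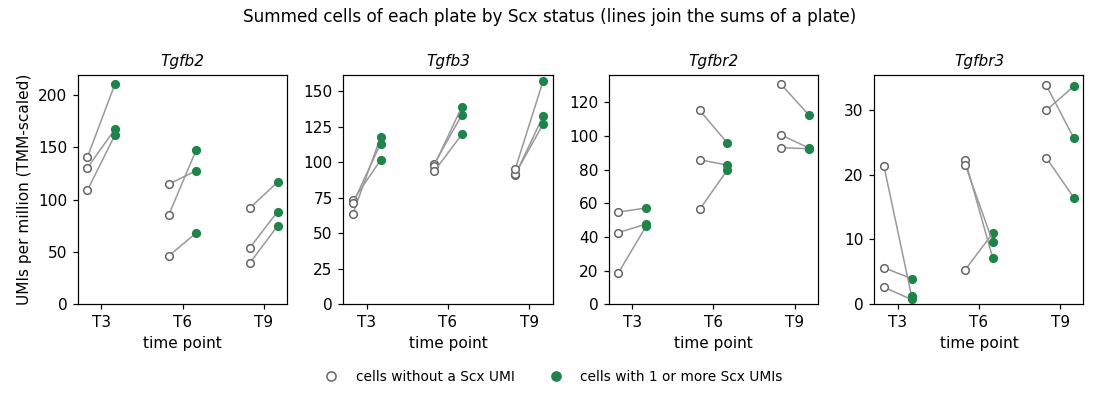
Levels of *Tgfb2*, *Tgfb3*, *Tgfbr2*, and *Tgfbr3* in *Scx*-positive and *Scx*-negative cells, in TMM-scaled CPM, with a line for each plate of T3, T6, and T9. The lines of *Tgfb3* and *Tgfb2* all run upward from negative to positive cells, with log2 differences of 0.43 to 0.69 and 0.50 to 0.62.

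Of all 11859 genes tested, 0.801% were called between *Scx*-positive and *Scx*-negative cells at T3, 0.523% at T6, and 0.413% at T9, and 0.0928% had a called difference of this effect between T9 and T3. In edgeR's test, 1292, 925, and 703 of these genes had an unadjusted p below 0.05 at T3, T6, and T9, and 863 for the difference between time points. Of the 9 genes, 3, 2, and 2 had an unadjusted p below 0.05 at T3, T6, and T9, and 1 for the difference between time points, and DESeq2 called none. These were *Tgfb2* and *Tgfb3* each time and *Tgfbr3*, which was lower in *Scx*-positive cells at T3 (−2.19 ± 0.73, adjusted p = 0.210) on only 28 UMIs in all and whose effect differed by 1.96 ± 0.81 between T9 and T3 (adjusted p = 0.601). With cells of at least 2 *Scx* UMIs against those with none, *Tgfb3* was called at T3 (0.71, adjusted p = 0.0412) and at T9 (0.78, adjusted p = 0.00374), and *Tgfb2* at T9 (0.86, adjusted p = 0.00983). Of the response genes, *Pmepa1* (0.53 ± 0.11), *Fn1* (0.43 ± 0.09), and *Junb* (0.68 ± 0.15) were higher in *Scx*-positive cells at T3, *Tgfbi* (0.82 ± 0.12) and *Col1a1* (0.28 ± 0.06) at T6, and *Tgfbi* (0.76 ± 0.12), *Fn1* (0.56 ± 0.09), *Col1a1* (0.35 ± 0.06), and *Col1a2* (0.29 ± 0.06) at T9. The latency gene *Thbs1* was also higher at T9 (0.47 ± 0.10), and no receptor or Smad of the lists was called. The genes of the lists were not read from thinned cells, so that the part of depth in them was not tested.

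The genes most like each of the 9 over the 12 plates were found among 13371 others as those with the smallest root-mean-square difference of the standardised log2 level. Nearest to *Tgfb3* were *Spsb1* (0.08), *Nfatc1* (0.09), and *Egfr* (0.10), and nearest to *Tgfbr2* were *Cilp* (0.10), a matrix protein gene, *Bhlhe41* (0.12), and *Esr1* (0.12). For *Tgfbr3* they were *Dram1* (0.14), *Igfbp7* (0.25), and *Abhd5* (0.25), and for *Tgfb2* *Clstn2* (0.26), *Tmem132d* (0.30), and *Gria2* (0.30). For *Tgfb1* they were *Nab2*, *Cpne8*, and *Arfgap3* (0.26 to 0.31), for *Tgfbr1* *Zbed4*, *Asf1b*, and *Zfp60* (0.24 to 0.27), and for *Smad3* *Ctdp1*, *Xpo7*, and *Ptpn13* (0.17 to 0.26). For *Smad4* they were *Usp24*, *Trp53bp2*, and *Pou2f1* (0.24 to 0.25), and for *Smad2* *Otud6b*, *Crabp1*, and *Vps26a* (0.32 to 0.42). Among the 9 genes themselves, *Tgfb3* and *Tgfbr2* were at 0.27 and *Smad3* and *Smad4* at 0.45. The plates share libraries and depth, and the values describe likeness only.

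In the Achilles tendon, loss of *Scx* went with less *Tgfbr3*. Of the 9 genes, this was the 1 called, against 3.84% of 14602 genes tested (1.77% higher and 2.07% lower). In edgeR's test, 3 of the 9 genes had an unadjusted p below 0.05, as had 2510 of all genes tested. *Scx* itself had 1151 and 996 counts in Scx_Wt and 287 and 296 in Scx_KO (log2 fold change −1.88 ± 0.17, adjusted p = 0.000429), and the part of the gene that was deleted is not given in the sources used here. Levels are TMM-scaled CPM per kilobase of exon, which allows a comparison between genes. *Tgfbr3* was at 16.4 and 17.5 in Scx_Wt and at 10.1 and 9.46 in Scx_KO, without overlap (log2 fold change −0.80 ± 0.15, a 1.74-fold difference, adjusted p = 0.0175). Without Scx_Wt replicate 2 the call was lost (adjusted p = 0.0604), and in all 4 fits without 1 sample the change was −0.84 to −0.75.

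The other receptors and *Smad3* were lower in both Scx_KO samples than in both Scx_Wt samples, but none of them was called. The share of all genes that separated in this way was not counted, so that separation alone is no result here. *Tgfbr1* was at 8.27 and 8.05 in Scx_Wt and 5.57 and 6.74 in Scx_KO (−0.41 ± 0.17, adjusted p = 0.251), and *Tgfbr2* at 16.6 and 14.4 against 13.0 and 12.2 (−0.30 ± 0.15, adjusted p = 0.356). *Smad3* was at 15.0 and 13.6 against 9.42 and 11 (−0.49 ± 0.16, adjusted p = 0.135). *Smad4* was at 14.2 and 11.5 against 9.88 and 13.1 and *Smad2* at 3.23 and 2.63 against 3.02 and 3.41, both with overlap (−0.16 ± 0.20 and 0.13 ± 0.19, adjusted p = 0.743 and 0.788).

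Of the ligands in tendon, *Tgfb3* had by far the highest level per kilobase, at 50.2 and 45.2 in Scx_Wt and 52.4 and 60.1 in Scx_KO. Both Scx_KO samples were above both Scx_Wt samples, but the difference was not called (0.24 ± 0.16, adjusted p = 0.485). *Tgfb2* was at 11 and 12.1 against 10.1 and 11.9, and *Tgfb1* at 8.11 and 5.50 against 6.21 and 6.74, with overlap in both and a change of −0.07 for each (adjusted p = 0.875 and 0.908). The 95% intervals, from −0.38 to 0.24 for *Tgfb2* and from −0.48 to 0.34 for *Tgfb1*, show what 2 samples a group could resolve. In Scx_Wt, *Tgfb3* was above all other genes of the 9 on this scale and *Smad2* below all in both samples. The overlaps of the *Tgfb2*, *Tgfb3*, and *Tgfbr3* exons with other genes apply here too, since the strand setting of the counting is not given.

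**Figure D4:**
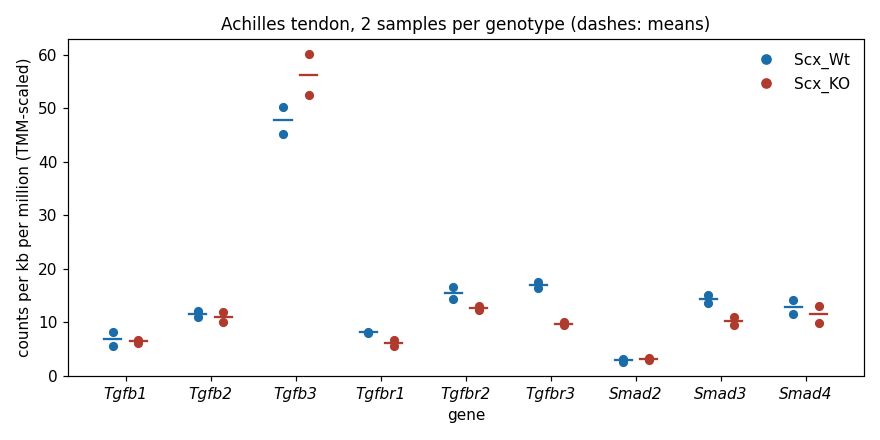
Level of the 9 genes in Achilles tendon, in TMM-scaled CPM per kilobase of exon, with a point for each of the 2 Scx_Wt and 2 Scx_KO samples and a dash for each mean. *Tgfbr3*, the gene that was called, stands at 16.4 and 17.5 against 10.1 and 9.46. The points of *Tgfbr1*, *Tgfbr2*, *Smad3*, and *Tgfb3* also separate by genotype, without a call. *Tgfb3* is the highest of the 9 genes in all 4 samples.

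The makeup of the tendon samples moved with genotype. The summed level of 8 tenocyte markers was 86920 to 94128 CPM in Scx_Wt and 40310 to 46587 in Scx_KO, that of 6 skeletal muscle markers 30857 to 56196 against 72874 to 76490, and that of 6 cartilage markers 718 to 791 against 31.2 to 49.0. The last sum was carried by *Col2a1* (658 and 597 against 23.4 and 12.3) and *Acan* (104 and 104 against 16.1 and 9.93), and *Matn3* was also lower, while *Cnmd* and *Sox9* overlapped between the genotypes and *Col9a1* was higher in both Scx_KO samples. Most of the tenocyte sum was *Col1a1* (84686 and 78446 against 37413 and 43732), and *Egr1* of that list overlapped (79.4 and 21.3 against 30.6 and 40.4). Of the muscle list, *Myh4* overlapped (2001 and 10324 against 8978 and 10420). Adipocyte (1221 to 3108 against 373 to 780.4), endothelial (727 to 750.2 against 472 to 547), and smooth muscle markers (493 to 974 against 210 to 363) were lower in Scx_KO. Schwann cell markers were at 450 to 465 in Scx_Wt and at 30.4 and 4138 in the Scx_KO samples. Immune markers were at 126 to 217 against 161 to 189, blood markers at 119 to 219 against 136 to 149, keratinocyte markers at 6.20 to 7.87 against 7.90 to 11.4, and epithelial markers at 1.31 to 1.61 against 12 to 18.0. Fewer cells of a type and less RNA per cell cannot be told apart in such samples, and the part of these markers in the change of *Tgfbr3* was not tested.

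Between the genotypes, beside the 3.84% of all genes, 2 of 17 latency genes were called. *Ltbp2* (2.05 ± 0.38) rose and *Thbs1* (−0.80 ± 0.18) fell. Of 13 other receptors, *Bmpr1b*, a BMP receptor known from cartilage, was the 1 called, and it fell (−2.07 ± 0.34). None of the 4 tested other Smads was called. Of 10 nuclear regulators, *Pmepa1* rose (0.80 ± 0.16), and of 14 response genes, 3 were called, since *Ltbp2*, *Pmepa1*, and the cell cycle inhibitor *Cdkn1a* (1.86 ± 0.15) rose and none fell. The list medians were 0.11 for latency, −0.20 for receptors, −0.39 for other Smads, −0.17 for nuclear regulators, and 0.24 for response genes, against 0.00 for all genes.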

How the data were processed

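*ScxGFP* iPSC-derived cells on 12 plates and 4 Achilles tendon samples were analysed. The authors trimmed the reads, aligned them to GRCm38 with HISAT2 (2.2.1 for plates and 2.0.4 for bulk, per the submitters' processing notes), and counted with featureCounts (1.5.0 for bulk) and UMI-tools 1.0.1. The deposited values are raw counts, UMIs per gene and well and reads per gene, without normalization or replicate pooling. The bulk kit was directional, and the strand setting of the counting is not given in the sources used here. The 3 entries of the plate table without a gene held 0.0642% of the UMIs and were left out.

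UMIs were summed per plate over wells with at least 200 genes and tested with edgeR 4.0.16 (limma 3.58.1, R 4.3.3) with filterByExpr, TMM, and the quasi-likelihood test, all 12 plates in a single fit. Benjamini-Hochberg adjustment ran over all genes tested, and a gene was called below 0.05. *Scx*-positive (at least 1 UMI) and *Scx*-negative sums were fitted with the plate as a block, and bulk samples by genotype. Intervals are estimates ± 1.96 SE. Likeness of profiles used a prior count of 1. DESeq2 1.42.0 was an alternative, beside those named in the closing section. Shares and thinning used Python 3.11.15 with numpy 2.4.6, pandas 2.3.3, and scipy 1.17.1, and figures matplotlib 3.10.9. Scripts were tested on simulated data. Replicates differed by more than counting error (chi-square per gene 3.18 to 57.6 between plates).

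The 9 genes, the pathway and marker lists, and the tests were chosen with earlier results of these data known. Up to 4 called genes per list and comparison with the largest change are named, with *Itgav* added after its value was seen, to complete a count. The T9 against T3 contrast, fits on 1 side of the library split, and scaling by totals were added after the data were seen. The side with more reads outside features held 1 T3 plate and 1 T9 plate. The side with fewer held 1 T6 plate, so that fits on 1 side rest on single plates. The split itself follows the study's library statistics. The deposited barcode list was not used.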

Additional observations from a re-analysis of the deposited data

Results flagged for a closer look

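*Tgfbr2*, the type II receptor, was the 1 result in which the difference between *Scx*-positive and *Scx*-negative cells ran one way on all plates of a time point and the other way on all plates of another, before thinning. At T3, it was at 57.2, 46.4, and 47.7 CPM after TMM scaling in *Scx*-positive and 54.8, 18.7, and 42.6 in *Scx*-negative cells of replicates 1 to 3. At T9, it was at 92.5, 93.0, and 113 against 93.1, 101, and 131. The log2 difference was 0.45 ± 0.26 (SE) at T3 and −0.12 ± 0.17 at T9, and neither was called (adjusted p = 0.539 and 0.989). The test of the change between these time points gave −0.57 ± 0.31 (unadjusted p = 0.0794, adjusted p = 0.759 by edgeR), so that it did not pass. *Scx*-positive cells were deeper on every plate. With each cell thinned to 3000 UMIs and *Scx* status called again on the thinned counts, the pattern was lost. T3 replicate 1 then had 55.0 CPM (without TMM scaling) in *Scx*-positive and 87.9 in *Scx*-negative cells, T9 replicate 2 had 86.1 against 84.5, and the log2 differences were 0.03 at T3 and −0.13 at T9. Without T3 replicate 2, the difference at T3 was 0.11. The largest gap at T3, on replicate 2, came from the plate of that time point with more reads outside annotated features, whose part in it was not tested.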

How the results depend on the processing

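The number of the 9 genes called was 6 from T0 to T3, 7 from T0 to T9, and 4 from T3 to T9, and stayed within 1.5 times of these under every alternative except T9 against T3 without T9 replicate 1, where 2 were called. Fits without 1 plate gave 4 to 5, 6 to 7, and 2 to 4, and the other alternatives 4 to 7, 6 to 9, and 3 to 4. From T3 to T6, the 2 calls became 1 with the replicate number as a block and on plates with more reads outside features, 0 on only the 6 plates compared, 0 after thinning to 3000 UMIs, 0 with totals only, and 0 to 2 without 1 plate. From T6 to T9, where none was called, 1 was with DESeq2, with size factors, without a filter on low counts, with the library split as a covariate, and in wells with at least 1000 genes, and 0 to 1 without 1 plate. Between genotypes, leaving out 1 sample gave 0 to 1. Between *Scx*-positive and *Scx*-negative cells, 1 was called at T3 and 1 at T6 without the filter, 1 at T3 and 2 at T9 with at least 2 *Scx* UMIs, and 1 at T9 after thinning. The causes were not tested. No value with an unadjusted p below 0.05 changed its sign. Of 729 alternative fits of the 56 other values, 92 changed sign and 6 were called.

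Most same-numbered plates did not deviate together (correlations −0.555 to 0.520 over 18 pairs, 3 of them above 0.1). The lowest value joined replicates 2 of T3 and T6, which lie on opposite sides of the library split. The highest joined replicates 3 of T6 and T9, which lie on the same side. In bulk, 2 samples a group allow only 1 correlation and its opposite (0.0667 and −0.0667). Whether the numbers pair the samples thus cannot be decided from these values. With the replicate block, 4 genes were called from T0 to T3 (*Tgfb1* at an adjusted p of 0.0598 and *Smad4* at 0.0640 were lost), 1 from T3 to T6 (*Tgfbr3* lost at 0.0551), and no other call changed. The *Scx* sums without a block gave no call among the 9 genes.

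Calls over all genes moved more. From T3 to T6, 567 genes became 899 (DESeq2), 1010 (no filter), 1483 (split), 264 (6 plates), 299 (totals), and 291 to 890 without 1 plate. From T6 to T9, 217 became 579, 684, 813, 45, and 90 in the same order, 113 with the block, 143 after thinning, and 35 to 852 without 1 plate (35 without T9 replicate 1 and 852 without T9 replicate 3). From T3 to T9, 1885 became 3405 with the split and 1205 on 6 plates, and 1152 without T9 replicate 1. Between genotypes, 560 became 1415 without the filter and 1108 with the block. For *Scx* status, 95, 62, and 49 became 62, 32, and 30 with DESeq2, 259, 268, and 129 without the filter, and 2, 4, and 5 without the plate block. The share of higher genes among those called went from 57.6% to 30.0% from T6 to T9 and from 58.9% to 35.1% from T3 to T9 with totals only. Shares of cells depend on depth: 31 of 36 moved beyond the spread between plates after thinning. With few UMIs, *Tgfb1* and *Tgfbr3* at T0 and T3 limit what could be detected, and 2 bulk samples a group limit the genotype comparison.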
